A study of Danio rerio with 4 samples.

Results

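Transcripts of 10 lipoprotein genes were examined in fasted zebrafish livers: *apoba*, *apobb.1* and *apobb.2* (apolipoprotein B), *apoc1* and *apoc2* (apolipoprotein C), *apoea* and *apoeb* (apolipoprotein E), *apom*, *mttp* and *lcat*. They were chosen by symbol, and all 10 were among the 16405 genes of the deposited table. Livers of both genotypes were dissected at 6 days post-fertilization (dpf) from fasted larvae. The 2 WT libraries (replicates 1 and 4) came from wild-type larvae, and the 2 *pex5*-/- libraries (replicates 1 and 2, labelled pex5 KO) from homozygous mutants. The mutant line descends from a single CRISPR/Cas9 founder with a small deletion in *pex5*, the import receptor for most peroxisomal matrix proteins. Homozygotes come from heterozygous parents and so start with maternal *pex5* product. The number of livers behind each library is not given in the sources used here, and nothing states that the libraries came from separate clutches, so that p-values measure only the spread between these libraries. The *pex5* transcript itself was not analysed here.

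Lipoproteins carry triglyceride and cholesterol through the blood. Apolipoprotein B is the scaffold of the large triglyceride-rich particles made by liver, intestine and, in fish larvae, the yolk syncytial layer, and the microsomal triglyceride transfer protein, encoded by *mttp*, loads lipid onto it as it is made. Apolipoproteins C and E move between particles: ApoC-II activates lipoprotein lipase, ApoC-I slows particle clearance in mammals, and ApoE is a ligand of the LDL receptor family. ApoM carries sphingosine-1-phosphate, mainly on HDL, and LCAT esterifies the cholesterol of HDL.

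RNA was read at its 3′ end by CEL-Seq2, a method in which a molecular barcode (UMI) lets PCR copies be counted once. Values are in TMM, the authors' normalised reads, or in log2(TMM + 1), the deposited scale. The libraries held between 1217737 and 1425834 reads, a read was worth between 0.691 and 0.785 TMM, and 3 reads were taken as the smallest reliable amount. A 3′ end method does not give longer transcripts more reads, so TMM levels of different genes were set side by side without a length correction. All 10 hepatocyte markers had reads in every library, although *vtna* had only 1 read in WT replicate 1, under that amount. The summed level of the markers lay between 29297 and 32935 TMM. Across the 3349 genes that averaged 10 TMM or more, the genes tested, WT replicate 1 resembled *pex5*-/- replicate 2 most (Pearson's r across genes 0.927) and WT replicate 4 resembled *pex5*-/- replicate 1 (0.916), against 0.826 and 0.878 within the genotypes. Genes are not independent replicates. *pex5*-/- replicate 1 stood apart in intestinal transcripts: 8 of 8 intestine markers were highest there, with a summed level of 1112 TMM against 164 and 205 TMM in WT and 163 TMM in *pex5*-/- replicate 2. For *vil1*, a structural protein of the intestinal brush border, 276 reads were found in that library against 4 and 19 reads in WT and 2 reads in *pex5*-/- replicate 2. Differences between the genotypes of the 9 genes with reads, and of genes of the pathway lists that did not overlap, are therefore given with and without *pex5*-/- replicate 1.

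The *apoC* genes, *apom* and, on few WT reads, *apoea* were higher in both *pex5*-/- libraries than in both WT libraries. The *apoB* genes, *mttp* and *apoeb* were not. Apart from *apobb.2*, all genes with reads were highest in *pex5*-/- replicate 1. Of the 10 genes, 9 had reads and reached a mean of at least 10 TMM. Of these 9, 7 had a higher and 2 a lower mean in *pex5*-/- livers, where 50.5% of all genes tested were higher and 49.5% lower, and their median difference was 0.57 on the log2 scale, beside 0.0043 over all genes tested. In 4 of the 9 (*apoc1*, *apoc2*, *apoea* and *apom*) both *pex5*-/- libraries lay above both WT libraries, which held for 16.9% of all genes tested, and in 0 of the 9 both lay below, which held for 13.5%. Scaled to equal totals of all reads, the same genes were above and the shares of all genes were 13% above and 19.3% below, and without mitochondrial genome RNA they were 11.1% and 22.1%. *apoea* reached a mean of 10 TMM only through *pex5*-/- livers, the genotype where it was high, so its place in these counts follows from the filter. Of the other 8 genes, 6 were higher, 3 were above without overlap and the median difference was 0.38. No gene passed an adjusted p under 0.05 after Benjamini-Hochberg adjustment in limma (0 of 3349 genes, 0%, and thus 0 of the 9). Without WT replicate 1 there were 12 such genes and without WT replicate 4 there were 3, with 0 of the 9 among them. At an unadjusted p under 0.05, limma gave 121 of all genes (3.61%) and 2 of the 9 (*apoc1* and *apoc2*, both among the 85 genes, 2.54%, that were higher), and limma with voom weights on the reads gave 94 genes, again with 0 past the adjusted threshold.

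**Figure D1:**
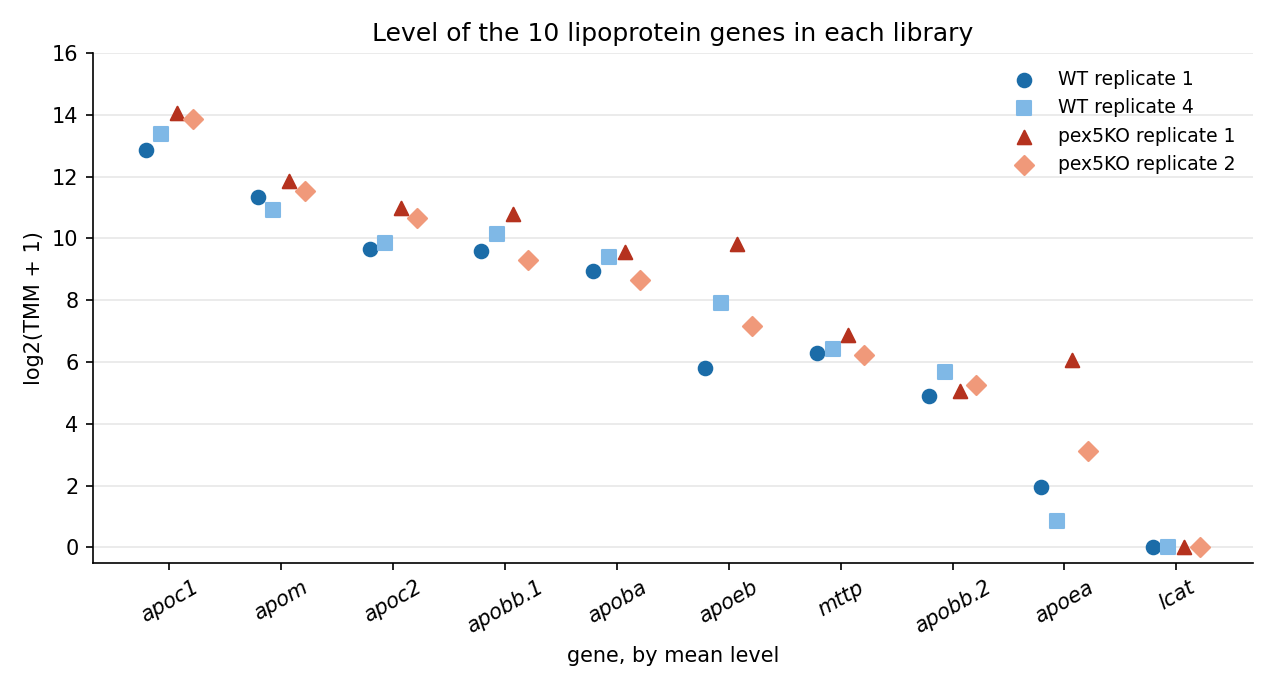
Level of each of the 10 genes in log2(TMM + 1) in the 4 libraries, a point per library, with genes ordered by mean level. *apoc1* is the most abundant in every library, *apoeb* and *apoea* spread most between libraries, and *lcat* is at 0 in all 4.

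The levels of the 10 genes differed widely. *apoc1* was ranked 8 of all genes by mean level, *apom* 35, *apoc2* 65, *apobb.1* 86, *apoba* 157, *apoeb* 249, *mttp* 694, *apobb.2* 1316 and *apoea* 2128. Among neighbours in this order, the ranges over the 4 libraries did not overlap between *apoc1* and *apom*, between *mttp* and *apobb.2* or between *apoea* and *lcat*. They overlapped for the other pairs of neighbours. *apom* and *apoc2* overlapped only between the genotypes and not within WT or within *pex5*-/-, whereas *apoc2* and *apobb.1* overlapped within both. Together the 10 genes took 1.28% of the reads of WT replicate 1, 1.65% of WT replicate 4, 2.49% of *pex5*-/- replicate 1 and 2.11% of *pex5*-/- replicate 2. This share was 1.47% ± 0.259 in WT and 2.30% ± 0.271 in *pex5*-/- (SD, n = 2 each, exact two-sided permutation p = 0.33, the smallest that 2 against 2 libraries allow). Between 60.5% and 71.7% of these reads belonged to *apoc1*.

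*apoc1* (ENSDARG00000092170, chromosome 16 of GRCz11) had 7408 TMM in WT replicate 1, 10754 TMM in WT replicate 4, 16977 TMM in *pex5*-/- replicate 1 and 14915 TMM in its replicate 2. Both *pex5*-/- libraries were above both WT libraries, and the gap rests on 10439 to 22588 reads per library. The mean was 9081 ± 2366 TMM in WT and 15946 ± 1458 TMM in *pex5*-/- (SD, n = 2 each), 1.76 times the WT mean. The log2 difference was 0.83 (standard error 0.22, unadjusted p = 0.0112 and Benjamini-Hochberg adjusted p = 1.00 in limma). It was larger than the 0.54 between the WT libraries and the -0.19 of *pex5*-/- replicate 2 relative to replicate 1.

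*apoc2* (ENSDARG00000092155, chromosome 16) had 813 TMM and 931 TMM in WT replicates 1 and 4, and 2034 TMM and 1628 TMM in *pex5*-/- replicates 1 and 2. Here too the genotypes did not overlap, and the lowest *pex5*-/- value was well above the highest WT value. The mean was 872 ± 84.0 TMM in WT and 1831 ± 287 TMM in *pex5*-/- (SD, n = 2 each), 2.1 times the WT mean. Its log2 difference of 1.06 (standard error 0.22) had an unadjusted p of 0.00441 and an adjusted p of 1.00 in the same limma fit. Replicate 4 differed from replicate 1 by 0.20 in WT, and replicate 2 from replicate 1 by -0.32 in *pex5*-/-. With *pex5*-/- replicate 1 left out, the log2 differences were 0.90 for *apoc2* and 0.74 for *apoc1*, and over the 4 ways to leave out a library they ranged from 0.90 to 1.22 and from 0.57 to 1.1. The adjusted p in limma ranged over the alternatives from 0.379 to 1.00 for *apoc2* and from 0.250 to 1.00 for *apoc1*.

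The ratio of *apoc1* to *apoc2* reads within a library overlapped between the genotypes. There were 9.12 and 11.5 *apoc1* reads per *apoc2* read in WT and 8.35 and 9.16 in *pex5*-/- livers (exact two-sided permutation p = 0.667). With 2 libraries per genotype this test cannot show that the ratios are alike. *apoc2* made up 9.88% of the *apoC* reads in WT replicate 1 (95% exact binomial interval 9.35% to 10.4%), 7.97% in WT replicate 4 (7.54% to 8.42%), 10.7% in *pex5*-/- replicate 1 (10.3% to 11.1%) and 9.84% in replicate 2 of that genotype (9.47% to 10.2%). WT replicate 4 was thus the lowest library and *pex5*-/- replicate 1 the highest. The intervals of the *pex5*-/- replicates did not meet, while that of WT replicate 1 met both. These intervals cover counting error only.

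The *apoC* genes neighbour other apolipoprotein genes. In the gene order of the RefSeq GRCz12tu annotation, *apoeb*, *apoc1*, *apoc4*, *apoa2* and *apoc2* follow each other on chromosome 16, with no other protein-coding gene between them. *apoc4* had no WT read and only 1 and 2 reads in the *pex5*-/- libraries, under the floor. *apoa2*, an HDL apolipoprotein, had a log2 difference of 0.81, like that of *apoc1*, and 9.12 and 6.61 *apoa2* reads per *apoc1* read were found in WT against 7.30 and 7.97 in *pex5*-/- (exact two-sided permutation p = 1.00). On the far side of *apoeb* lies *apoa4b.2*, a relative of *apoa4*. Its gene model ENSDARG00000020866 had 4 and 19 reads in the WT replicates, 361 reads in *pex5*-/- replicate 1 and 38 reads in *pex5*-/- replicate 2. This model was thus highest in the same library as *apoeb*. Unlike for *apoeb*, *pex5*-/- replicate 2 also lay above both WT replicates. A second model of the gene, ENSDARG00000094929, had 0 and 6 reads in WT and 28 and 13 in *pex5*-/-. The next genes beyond *apoc2* with at least 10 TMM on average were *rps19* and *cadm4*. *rps19*, a ribosomal protein, differed by 0.16. *cadm4*, a cell adhesion molecule, differed by -0.10 (standard error 1.03 in limma), with 85 and 12 reads in WT and 15 and 64 in *pex5*-/-. Its libraries were too far apart within each genotype to show whether it followed the apolipoprotein genes. The *pex5* gene is on the same chromosome, with 232 protein-coding genes between it and these apolipoprotein genes. Of the 171 genes of chromosome 16 that were tested, 34 (19.9%) were above without overlap, beside 16.9% of all genes tested, and the median log2 difference was -0.07. The part of the linked *pex5* region in these differences was not tested.

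The summed level of the 7 erythrocyte markers was 808 and 408 TMM in WT and 1459 and 1174 TMM in *pex5*-/-. Of the 6 tested, 0 passed the adjusted threshold and 3 were above without overlap, beside 16.9% of all genes tested. *hbae3* was among them (259 ± 88.5 TMM in WT and 606 ± 13.6 TMM in *pex5*-/-, SD, n = 2 each). The other 3 overlapped. Of the 5 heart and muscle markers tested, 2 were lower without overlap, beside 13.5% of all genes tested. *myl7*, a myosin light chain of the heart, had 123 and 168 reads in the WT replicates and 20 and 21 in the *pex5*-/- replicates. *cmlc1*, another, had 48 and 34 reads against 0 and 2, which is under the floor in both *pex5*-/- libraries. It passed the filter on mean level only through WT livers, the genotype where it was high. Its place in this count of lower genes thus follows from the filter. Apart from *cmlc1*, only *myl7* was lower without overlap. The 3 other tested genes of the heart and muscle list overlapped. Of the 9 hepatocyte markers tested, 2 were higher (*rbp4* and *tfa*) and 2 lower (*fgb* and *uox*) without overlap, beside 16.9% and 13.5% of all genes tested. The median log2 difference of the 9 was -0.03. Of the summed hepatocyte markers, *rbp4* alone made up 13454 and 10393 TMM in WT and 15505 and 16633 TMM in *pex5*-/-. When each library was shifted by its hepatocyte markers, the differences were 0.86 for *apoc1* and 1.09 for *apoc2*. The part of red blood cells or heart tissue in the result was not tested. In whole liver RNA, fewer cells of a type and less RNA per cell cannot be told apart.

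*apom* (ENSDARG00000076838, chromosome 2) had 2589 TMM and 1922 TMM in WT replicates 1 and 4 and 3696 TMM and 2965 TMM in *pex5*-/- replicates 1 and 2. The genotypes did not overlap, but *pex5*-/- replicate 2 lay only 0.20 above WT replicate 1 on the log2 scale. The mean was 2255 ± 472 TMM in WT and 3331 ± 516 TMM in *pex5*-/- (SD, n = 2 each), 1.48 times the WT mean. The log2 difference was 0.57 (standard error 0.23, unadjusted p = 0.0573 and Benjamini-Hochberg adjusted p = 1.00 in limma), and 0.41 without *pex5*-/- replicate 1. Unlike for the *apoC* genes, the WT library with the higher level was replicate 1.

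**Figure D2:**
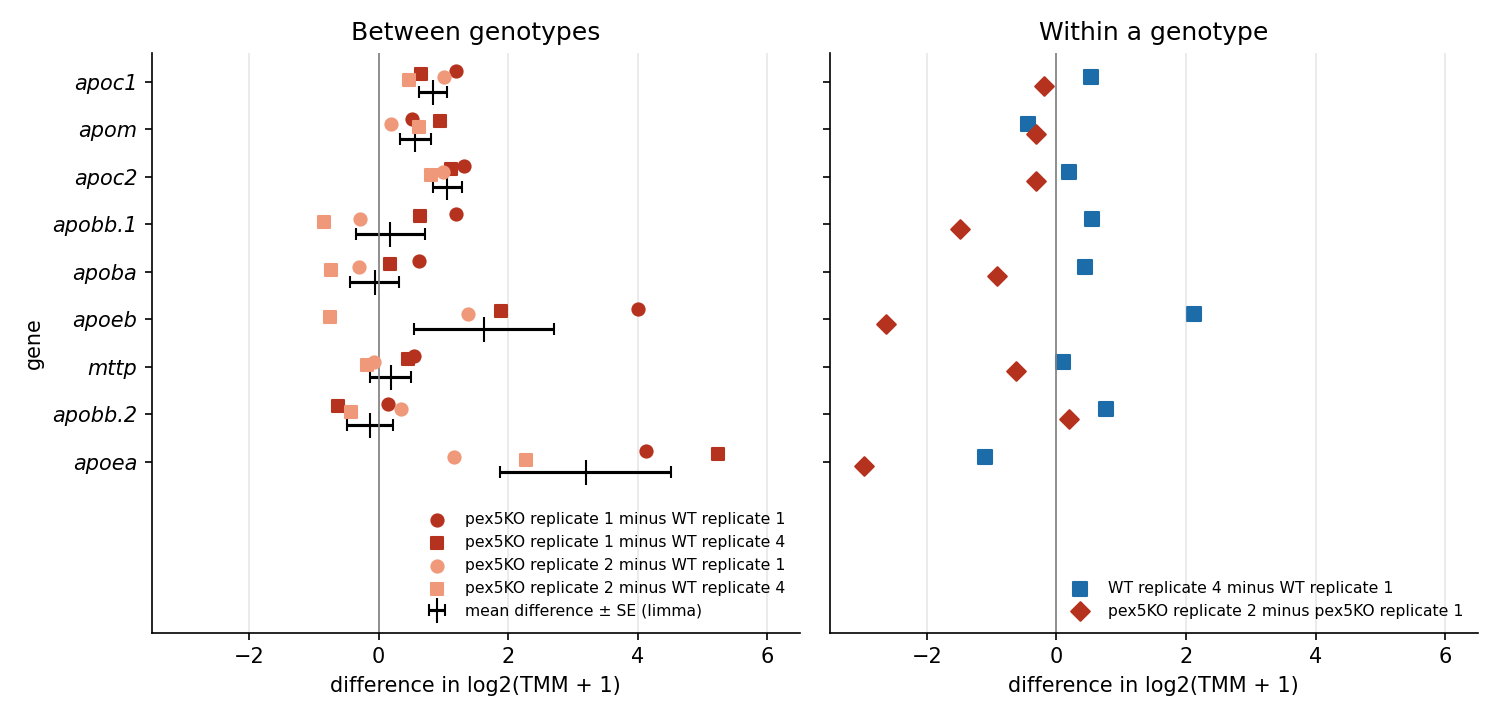
Differences in log2(TMM + 1) for the 9 genes with reads. Left, the 4 pairs of a *pex5*-/- and a WT library with the mean difference and its limma standard error; right, the difference between the 2 libraries of each genotype. All 4 pairs lie above 0 for *apoc1*, *apoc2*, *apom* and *apoea*, and the pairs of *apobb.1*, *apoba* and *mttp* are above 0 for *pex5*-/- replicate 1 and below 0 for replicate 2. The standard error drawn for *apoea* is not a test, because that gene passed the filter only through *pex5*-/- livers.

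The *apoB* genes, which encode the scaffold of the particle, showed no common direction between the genotypes. *apobb.1* (ENSDARG00000022767, chromosome 20) had 772 TMM and 1132 TMM in WT replicates 1 and 4, 1770 TMM in *pex5*-/- replicate 1 and 634 TMM in *pex5*-/- replicate 2. The *pex5*-/- libraries were thus the highest and the lowest of the 4. The mean of 952 ± 255 TMM in WT and 1202 ± 803 TMM in *pex5*-/- (SD, n = 2 each) gave a log2 difference of 0.18 (standard error 0.53, Benjamini-Hochberg adjusted p = 1.00 in limma), smaller than the spread between the *pex5*-/- libraries, where replicate 2 differed from replicate 1 by -1.48. Without *pex5*-/- replicate 1 the difference was -0.56.

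*apoba* (ENSDARG00000042780, chromosome 17) followed the same order of libraries. It had 495 TMM and 669 TMM in WT replicates 1 and 4, 759 TMM in *pex5*-/- replicate 1 and 403 TMM in *pex5*-/- replicate 2. Its means were almost equal, 582 ± 123 TMM in WT and 581 ± 252 TMM in *pex5*-/- (SD, n = 2 each), with a log2 difference of -0.06 (standard error 0.38, Benjamini-Hochberg adjusted p = 1.00 in limma). It was -0.51 without *pex5*-/- replicate 1. *apobb.2* (ENSDARG00000075016, chromosome 20) was the least abundant of the 3 *apoB* genes, with 41 and 64 reads in the WT replicates and 43 and 54 in the mutant replicates. Its log2 difference was -0.14 (standard error 0.36, adjusted p = 1.00 in the same limma fit), and -0.04 without *pex5*-/- replicate 1.

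*mttp* (ENSDARG00000008637, chromosome 1) had 78.1 TMM and 84.0 TMM in WT replicates 1 and 4, 115 TMM in *pex5*-/- replicate 1 and 74.0 TMM in *pex5*-/- replicate 2. As for the 2 abundant *apoB* genes, the *pex5*-/- libraries were the highest and the lowest. The mean of 81.0 ± 4.22 TMM in WT and 94.5 ± 29.0 TMM in *pex5*-/- (SD, n = 2 each) gave a log2 difference of 0.19 (standard error 0.32, Benjamini-Hochberg adjusted p = 1.00 in limma), which was -0.13 without *pex5*-/- replicate 1. Without that library, *pex5*-/- replicate 2 lay below both WT libraries for *apoba*, *apobb.1* and *mttp*, as it did for 29.3% of all genes tested. It lay above both for *apoc1*, *apoc2*, *apoea* and *apom*, as for 30.5%. For *apoc1*, *apoc2*, *apoea* and *apom* this follows from their lack of overlap with that library included.

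The composition of the *apoB* reads was similar in 3 libraries. *apobb.1* made up 59.6% of them in WT replicate 1 (95% exact binomial interval 57.3% to 61.8%), 61.2% in WT replicate 4 (59.2% to 63.1%) and 59.0% in *pex5*-/- replicate 2 (56.5% to 61.5%). In *pex5*-/- replicate 1, the library with the most intestinal transcripts, it made up 69.1% (67.5% to 70.7%), an interval that does not meet the other 3. Between genotypes the share differed by 3.69 percentage points (60.4% ± 1.11 in WT and 64.1% ± 7.14 in *pex5*-/-, SD, n = 2 each, exact two-sided permutation p = 1.00), less than the spread in *pex5*-/-. Per *apoB* read there were 5.72 and 5.81 *apoc1* reads in WT, 6.63 in replicate 1 of *pex5*-/- and 13.9 in its replicate 2. The *pex5*-/- libraries were above the WT libraries in this ratio too, but by very different amounts (exact two-sided permutation p = 0.33).

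**Figure D3:**
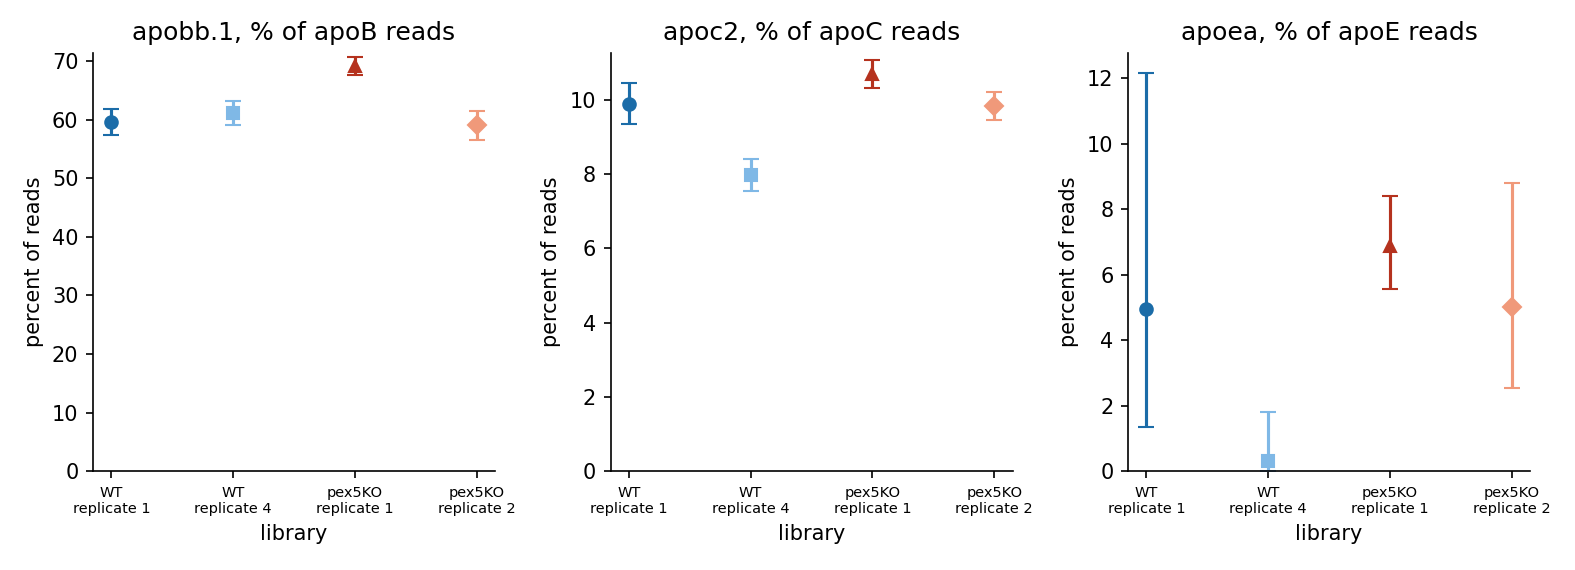
Percent of the reads of a gene family taken by *apobb.1*, *apoc2* and *apoea* in each library, with 95% exact binomial intervals (counting error only). *apobb.1* stands at 69.1% in *pex5*-/- replicate 1 and between 59.0% and 61.2% in the other 3 libraries, and the *apoea* intervals are wide because few reads lie behind them.

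The *apoE* genes, whose products are ligands for particle uptake, varied most between libraries. *apoeb* (ENSDARG00000040295, chromosome 16) had 54.6 TMM in WT replicate 1, 241 TMM in WT replicate 4, 894 TMM in *pex5*-/- replicate 1 and 144 TMM in *pex5*-/- replicate 2. The genotypes overlapped, since *pex5*-/- replicate 2 was below WT replicate 4. The mean was 148 ± 132 TMM in WT and 519 ± 531 TMM in *pex5*-/- (SD, n = 2 each). The log2 difference of 1.63 (standard error 1.08, Benjamini-Hochberg adjusted p = 1.00 in limma) was smaller than the 2.12 between the WT libraries, and it was 0.32 without *pex5*-/- replicate 1, 0.57 without WT replicate 1, 2.69 without WT replicate 4 and 2.95 without *pex5*-/- replicate 2.

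*apoea* (ENSDARG00000102004, chromosome 19) had 4 and 1 reads in WT replicates 1 and 4 and 88 and 11 reads in *pex5*-/- replicates 1 and 2. Both *pex5*-/- libraries were above both WT libraries, but WT replicate 1 was just over the floor of 3 reads and WT replicate 4 under it. After TMM scaling, the reads of both *pex5*-/- libraries together were 19.1 times those of WT, and those of *pex5*-/- replicate 2 alone were 4.08 times. The *pex5*-/- libraries themselves lay far apart, at 66.1 TMM in replicate 1 and 7.60 TMM in replicate 2, so the pooled ratio rests mostly on replicate 1. The log2 difference was 3.20, given with no test because the gene passed the filter only through *pex5*-/- livers. It was 1.72 without *pex5*-/- replicate 1 and 4.68 without *pex5*-/- replicate 2. *apoea* made up 4.94% and 0.325% of the *apoE* reads in WT and 6.89% and 5.02% in *pex5*-/-.

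The high *apoE* and *apobb.1* values of *pex5*-/- replicate 1 lay in the library with the most intestinal transcripts. Relative to their mean over the 4 libraries, the summed intestine markers stood at -0.77, -0.45, 1.99 and -0.77 on the log2 scale in WT replicates 1 and 4 and *pex5*-/- replicates 1 and 2. *apoeb* stood at -1.88, 0.24, 2.13 and -0.50, and *apoea* at -1.05, -2.15, 3.08 and 0.12. *apobb.1* stood at -0.37, 0.19, 0.83 and -0.65. All of them were highest in *pex5*-/- replicate 1, while the summed hepatocyte markers stayed between -0.09 and 0.07. Of the summed intestine markers, *tm4sf4* alone made up 145, 122, 323 and 140 TMM in the same order of libraries. Single intestine markers also differed between WT replicates 1 and 4. *chia.2* (8 and 51 reads), *vil1* (4 and 19), *fabp1b.1* (1 and 13) and *slc15a1b* (1 and 8) were higher in replicate 4. So were *fabp2* (1 and 6) and *cdx1b* (0 and 3), on few reads. Only *tm4sf4* and *anpepb* (12 and 6 reads) were lower. Of the 9 genes, 8 were highest in *pex5*-/- replicate 1, where 27.4% of all genes tested were, and *apobb.2* alone was highest in WT replicate 4. The part of the intestinal RNA in these values was not tested. Of 8 markers of macrophages, another source of ApoE in vertebrates, 5 were listed, and they summed to 2.84, 4.71, 7.52 and 3.46 TMM in the same order of libraries. Their sum was highest in *pex5*-/- replicate 1, on few reads, but 3 of the 5 were highest in WT replicate 4 and 2 in *pex5*-/- replicate 1. The part of macrophages was not tested. The epidermal markers summed to 128 and 581 TMM in WT and to 322 and 182 TMM in *pex5*-/-. For the exocrine pancreas markers the sums were 558 and 1403 TMM in WT and 1123 and 662 TMM in *pex5*-/-. These sums were highest in WT replicate 4. Within *pex5*-/- they were higher in replicate 1 than in replicate 2, as *apoeb* and *apobb.1* were. The part of these tissues was not tested.

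**Figure D4:**
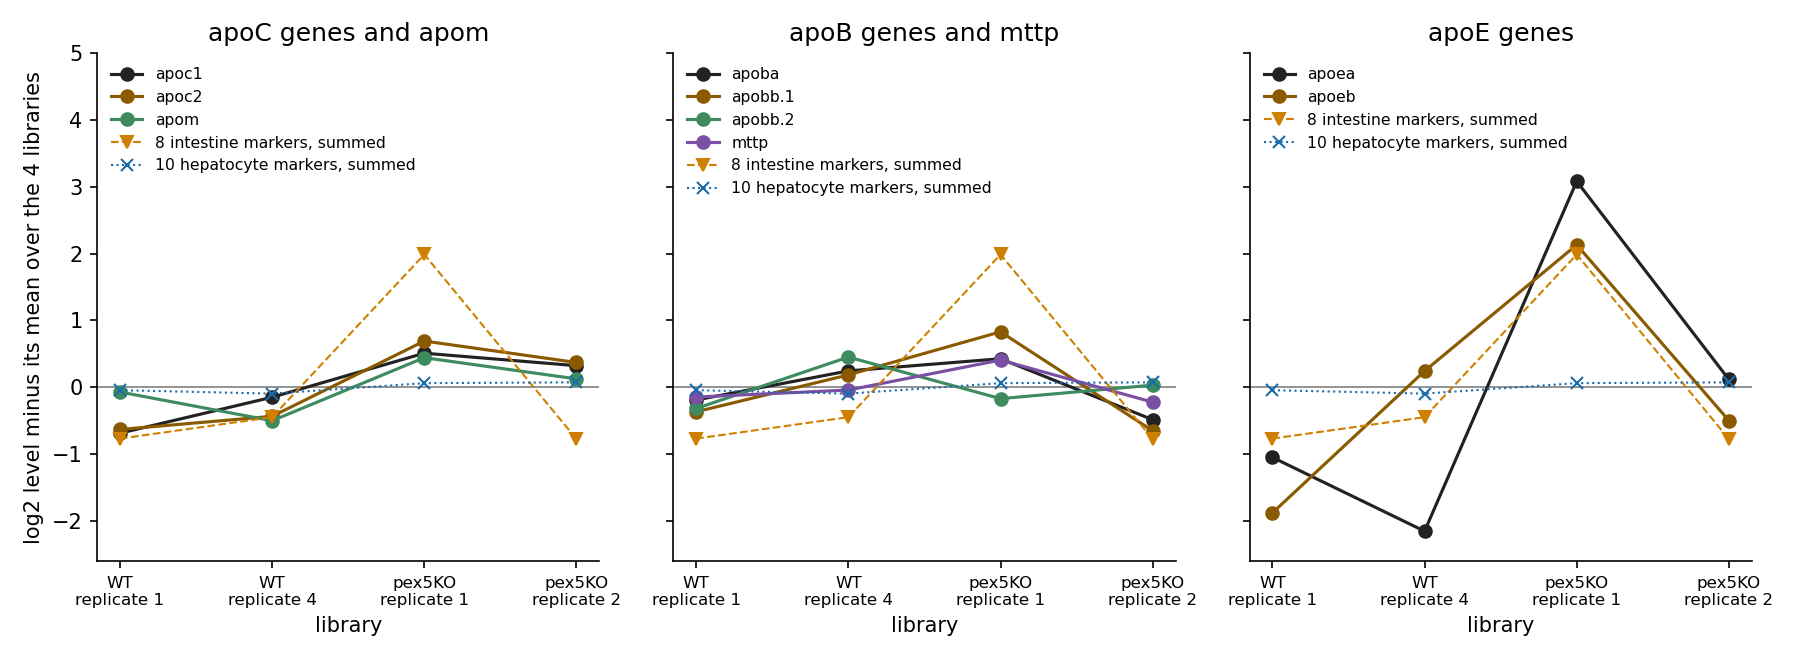
Log2 level of the 9 genes with reads relative to their own mean over the 4 libraries, beside the summed intestine and hepatocyte markers. The lines link the libraries for reading only. The *apoE* genes peak with the intestine markers in *pex5*-/- replicate 1, and so do *apoc1*, *apoc2* and *apom*. *apoc1*, *apoc2*, *apom* and *apoea* are above their mean in both *pex5*-/- libraries, whereas *apoeb* is below its mean in the other *pex5*-/- replicate.

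*lcat* (ENSDARG00000099424, chromosome 25), which encodes the enzyme that esterifies HDL cholesterol, was listed with 0 reads in all 4 libraries. A count of 0 allows up to 3 counted reads, between 2.07 and 2.36 TMM per library, at this depth. That limit covers only reads assigned to the annotated gene. Reads from a 3′ end outside the annotation would also leave 0, which was not tested, so absence of the transcript is not shown.

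Other genes of lipoprotein handling were taken from lists chosen by symbol. Of the receptor and uptake genes, 11 of 13 were listed and 3 had at least 10 TMM on average. *ldlra*, the LDL receptor and the most abundant of them, averaged 422 ± 52.4 TMM in the WT and 459 ± 88.4 TMM in the *pex5*-/- libraries (SD, n = 2 each), a difference within the spread. *lsr*, a receptor for triglyceride-rich particles in mammals, was at 86.6 TMM and 83.2 TMM in WT and at 63.1 TMM and 64.3 TMM in *pex5*-/-. Of the 3 receptor genes tested, only *lsr* was without overlap, beside 13.5% of all genes tested that were lower without overlap. Its log2 difference was -0.41 (standard error 0.25, Benjamini-Hochberg adjusted p = 1.00 in limma).

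Among the lipases and their regulators, *lpl*, the lipase that ApoC-II activates, had 392 TMM and 378 TMM in WT and 267 TMM and 283 TMM in *pex5*-/-. Its genotypes did not overlap, with a log2 difference of -0.49 (standard error 0.22, unadjusted p = 0.0809 and Benjamini-Hochberg adjusted p = 1.00 in limma). *angptl4*, an inhibitor of lipoprotein lipase, had 44.0 TMM and 60.5 TMM in WT and 84.2 TMM and 128 TMM in *pex5*-/-. Both *pex5*-/- libraries were above WT, and the log2 difference was 0.99 (standard error 0.34, unadjusted p = 0.0327 and Benjamini-Hochberg adjusted p = 1.00 in limma). Of the 3 genes of this list tested, 1 was above and 1 below without overlap, beside 16.9% and 13.5% of all genes tested.

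For particle assembly and secretion, 18 of 20 genes were listed and 8 were tested, with 5 higher and 3 lower in *pex5*-/- and a median log2 difference of 0.29. In 4 of the 8 both *pex5*-/- libraries were above both WT libraries, beside 16.9% of all genes tested, and in 1 both were below, beside 13.5%. *p4hb*, the protein disulfide isomerase that is the partner subunit of the *mttp* product, had 24.8 TMM and 19.6 TMM in WT and 47.3 TMM and 38.7 TMM in *pex5*-/-. Its levels were separated by genotype, unlike those of *mttp*, with a log2 difference of 0.92 (standard error 0.29, unadjusted p = 0.0239 and Benjamini-Hochberg adjusted p = 1.00 in limma). *mia3*, a cargo receptor for large secretory loads, differed by 0.49. *sec24c*, a coat protein of secretory vesicles and the gene below without overlap, differed by -0.46. Both had 10 to 21 reads per library. *mia3* reached a mean of 10 TMM only through *pex5*-/- livers and *sec24c* only through WT livers. Their places in these counts thus follow from the filter, and their differences are given with no test. The other genes above without overlap, *sar1b* and *pla2g12b*, are named after their values were seen. *sar1b*, the GTPase that starts the vesicles that export such particles, averaged 180 ± 27.1 TMM in the WT and 239 ± 15.7 TMM in the *pex5*-/- libraries (SD, n = 2 each), and *pla2g12b*, needed for lipid loading of the particles, differed by 0.29. The most abundant gene of this list, *sec23b*, averaged 377 ± 213 TMM in the WT and 307 ± 62.0 TMM in the *pex5*-/- libraries.

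Of the genes of HDL remodelling and the remaining apolipoproteins, 13 of 15 were listed and 5 tested, 1 higher and 4 lower, with a median log2 difference of -0.31. *cetp*, which exchanges lipids between particles, was the most abundant and was lower without overlap, with 136 TMM and 121 TMM in WT and 105 TMM and 83.0 TMM in *pex5*-/- (log2 difference -0.45, standard error 0.27, Benjamini-Hochberg adjusted p = 1.00 in limma). Of the transcriptional regulators of these genes, 11 of 12 were listed and 4 tested. *foxa2*, a liver transcription factor, was lower without overlap, with 25.9 ± 4.49 TMM in WT and 16.2 ± 0.571 TMM in *pex5*-/- (SD, n = 2 each). *cetp* and *foxa2* were each the only tested gene of their list without overlap, beside 13.5% of all genes tested that were lower without overlap. *srebf2*, a regulator of sterol synthesis, had 17.8 ± 2.94 TMM and 28.9 ± 14.4 TMM, and its genotypes overlapped. *hnf4a*, an activator of *apob* and *mttp* in mammals, had at most 2 reads in any library, under the floor, so its genotypes were not compared. Without *pex5*-/- replicate 1, the log2 differences of the genes of the pathway lists without overlap were -0.40 for *lsr*, -0.45 for *lpl*, 1.29 for *angptl4*, 0.78 for *p4hb*, 0.25 for *mia3*, -0.67 for *sec24c*, 0.35 for *sar1b*, 0.07 for *pla2g12b*, -0.62 for *cetp* and -0.60 for *foxa2*. For genes without overlap the direction cannot turn when a library is left out, so only the sizes are informative. The difference of *pla2g12b* was close to 0.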

How the data were processed

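Liver RNA of fasted 6 dpf larvae, 2 WT and 2 *pex5*-/- libraries, was sequenced with CEL-Seq2. Per the labels and the study's methods, the authors extracted UMIs with UMI-tools 1.1.1, trimmed with Trim Galore 0.6.7, mapped to GRCz11 with HISAT2 2.2.1, counted with featureCounts 2.0.1, removed UMI duplicates, scaled the counts by TMM with edgeR and deposited them per library as log2(TMM + 1). The annotation release is not given in the sources used here. Reads that match several gene copies could be split or lost in counting.

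The log was undone, and 100% of values were whole multiples of a step per library within 0.05 reads, which gave reads and depth. Genotypes were compared with limma 3.58.1 in R 4.3.3 (trend on mean expression) on deposited log2 values of the 3349 genes averaging 10 TMM or more, adjusted over all of them at 0.05. The scale understates differences of genes with few reads. Single values were compared with exact two-sided permutation tests, and intervals are exact (95%), in Python 3.11.15 with scipy 1.17.1. The 10 genes and all lists were chosen with earlier results of these data known. Genes named beside the 10 are, per list, the most abundant and up to 3 without overlap with the largest difference among those with at least 10 TMM, and the 5 genes of most like pattern. Single cell type markers, chromosome neighbours, *hnf4a* and the *abca1* paralogues were named after their values were seen. In the lists, 1 older symbol was matched by gene ID. Alternatives covered pseudocount, filter, scaling, test and each library left out. No sequence was analysed here.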

Additional observations from a re-analysis of the deposited data

How the results depend on the processing

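No gene of the 10 passed the adjusted threshold under any alternative that was fitted. *apoc1*, *apoc2*, *apoea*, *apoeb* and *apom* kept their direction under all of them. For *apoc1*, *apoc2*, *apoea* and *apom*, whose genotypes did not overlap, leaving out a library could not turn the direction. With a library left out, the number of all genes called in limma ranged from 0 to 12 (12 without WT replicate 1, 3 without WT replicate 4, 0 without either *pex5*-/- replicate), the number of the 9 genes lower in *pex5*-/- from 0 to 4 and the number higher from 5 to 9. With a mean of at least 50 TMM required, 1 gene was lower, because *apobb.2* was no longer tested. With a library left out, the log2 difference ranged from -0.51 to 0.40 for *apoba*, from -0.56 to 0.92 for *apobb.1*, from -0.52 to 0.25 for *apobb.2* and from -0.13 to 0.50 for *mttp*. Directions turned for *apobb.1* without WT replicate 1 (-0.10) and without *pex5*-/- replicate 1 (-0.56), for *apoba* without WT replicate 4 (0.16) and without *pex5*-/- replicate 2 (0.40), for *apobb.2* without WT replicate 4 (0.25) and for *mttp* without *pex5*-/- replicate 1 (-0.13). The difference in the *apobb.1* share of *apoB* reads ranged from -1.36 (without *pex5*-/- replicate 1) to 8.73 points. In these fits the lone library of a genotype is assumed to vary like the other genotype. The cause of these turns was not tested. Scaling to equal totals without mitochondrial genome RNA moved the median of all genes to -0.13, with *apoc1* at 0.70, *apoc2* at 0.93 and *apom* at 0.44; genes at an unadjusted p under 0.05 then numbered 50 higher of 116, against 85 higher of 121 with TMM, and 62 of 121 with equal totals of all reads. Scaling to hepatocyte markers and the check without *pex5*-/- replicate 1 for genes without overlap and for genes of the pathway lists, and the counts without *apoea*, were chosen after seeing the data. The planned quasi-likelihood count test was not run, and the reads were tested in limma with voom weights. No paired analysis was possible, because no pairing of WT with *pex5*-/- libraries is given in the sources used here. With 2 libraries per genotype, no exact test can reach 0.05.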

Other observations

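Of the 617 other genes averaging 100 TMM or more, the 5 whose centred log2 values lay closest to the mean pattern of the 9 genes over the 4 libraries were *pgrmc1*, *pgm1*, *fthl27*, *acadvl* and *mid1ip1b*. Their root mean square distances from that pattern were between 0.151 and 0.215. The mean pattern of the 9 genes stood at -0.59 and -0.24 in WT replicates 1 and 4 and at 0.93 and -0.10 in *pex5*-/- replicates 1 and 2. The 9 genes count equally in it, so *apoea* (3.08) and *apoeb* (2.13) weighed most in *pex5*-/- replicate 1. In replicate 2, *apoc1* (0.32), *apoc2* (0.37), *apom* (0.13), *apoea* (0.12) and *apobb.2* (0.03) stood above their own means. There *apoba*, *apobb.1*, *apoeb* and *mttp* stood below theirs, so the mean pattern does not stand for each gene. With 4 libraries this is a description only.

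*abca1b*, a paralogue of the transporter that passes cholesterol to HDL, was chosen after its values were seen. Its reads numbered 7 and 22 in WT replicates 1 and 4 and 115 and 9 in *pex5*-/- replicates 1 and 2, so that its high value lay in the library with the most intestinal transcripts, while its paralogue *abca1a* had 93, 100, 88 and 90 reads. *chia.2*, an intestinal chitinase on the marker list, numbered 8 and 51 reads in WT replicates 1 and 4, and 545 and 14 in the *pex5*-/- replicates.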
